A study of Mus musculus with 2 samples.

Results

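A set of 10 genes that draw leukocytes to a tissue or hold them there was followed through the wall of the superficial cervical lymphatic vessels of the mouse: the chemokines Cxcl1, Cxcl2, Ccl2, Ccl7 and Cxcl10, the cytokines Il6, Csf1 and Il33, and the adhesion molecules Icam1 and Vcam1. They were chosen by name, as 10 of the 23521 genes listed in both tables, and all 10 were found. The cells came from the afferent lymphatics of submandibular lymph nodes of FVB/N mice of the Prox1-GFP genotype, in which green fluorescent protein follows the Prox1 promoter, and had passed through a flow sorter before capture in droplets and counting of molecules at the 3′ end. The adult library pooled 6 mice of 12 weeks and the aged library pooled 6 mice of 93 weeks. No treatment is named, and the reporter is shared by both groups. Each age is therefore 1 sample without a replicate, the cells carry no mark of the mouse they came from, and no difference between ages could be tested. Every interval given here covers counting error only (95%, exact), and age cannot be told apart from any other difference between the libraries.

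The adult table held 7308 cells with a median of 12087.5 unique molecular identifiers (UMIs, counts of single RNA molecules) per cell. The aged table held 13969 cells, but 6977 of its barcodes were also in the adult table, 95.5% of the adult cells. These copies carried a median of 0.506 of the UMIs of their adult counterparts and were left out, so that 6992 aged cells remained with a median of 11663.5 UMIs. The aged table names no genes, so each of its rows took the name of the adult row at the same position. Over the shared cells, each of the 10 genes correlated best with the row at its own position, from 0.742 for Csf1 to 0.966 for Cxcl1, and no other row reached more than 0.573. Clustering without the 10 genes gave 20 clusters. By markers, 13 were fibroblast-like (6043 adult and 6215 aged cells), 2 were smooth muscle-like (364 and 267), 2 were blood endothelial-like (593 and 387) and 2 were lymphatic endothelial-like (246 and 85), while 1 cluster led by Gja5 and Sema3g stayed unnamed (62 and 38). Although the mice carry a lymphatic reporter, fibroblast-like cells made up 82.7% and 88.9% of the libraries. Ptprc, the pan-leukocyte marker CD45, was at 0 in both endothelial classes and in the smooth muscle-like class of both libraries, and the 10 immune markers in the table summed to 11.9 to 99.7 CPM (UMIs per 1000000 UMIs of the class) in all classes. The median UMIs per cell were 13167 and 12235 in fibroblast-like cells but 5182 to 7525 in the other classes, so percentages of cells with a UMI are given after thinning to 4000 UMIs, unless said otherwise. Shallower cells were left out of them, 179 and 195 fibroblast-like, 44 and 52 smooth muscle-like, 47 and 47 blood endothelial-like and 50 and 21 lymphatic endothelial-like cells. Counts of cells, as in 45 of 364, are unthinned.

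Cxcl1 and Cxcl2 are chemokines that attract neutrophils through the receptor Cxcr2. Ccl2 and Ccl7 attract monocytes through Ccr2, and Cxcl10 is an interferon-induced chemokine that attracts activated T cells through Cxcr3. Il6 is a cytokine of the acute response, Csf1 is the growth factor of macrophages, and Il33 is kept in the nucleus of stromal cells and released as an alarm signal on damage. Icam1 and Vcam1 on endothelium bind leukocyte integrins, and on lymphatic endothelium they help leukocytes enter the vessel. Transcription of most of these genes can be switched on by NF-kB, the factor downstream of tumour necrosis factor, interleukin 1 and Toll-like receptors, and Cxcl10 also answers to interferons.

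The proximal promoters show what the chemokine genes share and where Cxcl10 differs, and for that reason 4 of them are printed. Promoters of 7 of the 10 genes were in the RefSeq table (build GRCm38.p6, 250 bases before to 50 after the start of transcription). Ccl2, Ccl7 and Vcam1 had no entry. The stretches below run 5′ to 3′ on the strand of the gene, from base 220 to base 31 before the start, and capitals mark matches to the NF-kB consensus and, in Cxcl10, also an interferon-type motif (GAAA, 2 bases of any kind, GAAA).
Cxcl1, chr5:90891025-90891214, plus strand: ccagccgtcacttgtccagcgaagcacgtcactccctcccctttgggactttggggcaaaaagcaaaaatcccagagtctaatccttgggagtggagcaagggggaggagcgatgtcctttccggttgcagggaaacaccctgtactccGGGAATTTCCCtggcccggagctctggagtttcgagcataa
Cxcl2, chr5:90903679-90903868, plus strand: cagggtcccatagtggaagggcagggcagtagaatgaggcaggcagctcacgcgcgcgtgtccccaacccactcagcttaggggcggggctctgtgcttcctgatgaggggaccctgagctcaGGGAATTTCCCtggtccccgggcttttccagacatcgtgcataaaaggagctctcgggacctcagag
Il6, chr5:30012894-30013083, plus strand: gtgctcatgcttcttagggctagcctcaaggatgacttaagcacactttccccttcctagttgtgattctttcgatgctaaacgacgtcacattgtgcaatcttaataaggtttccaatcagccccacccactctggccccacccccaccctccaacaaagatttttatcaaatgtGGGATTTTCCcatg
Cxcl10, chr5:92348920-92349109, minus strand: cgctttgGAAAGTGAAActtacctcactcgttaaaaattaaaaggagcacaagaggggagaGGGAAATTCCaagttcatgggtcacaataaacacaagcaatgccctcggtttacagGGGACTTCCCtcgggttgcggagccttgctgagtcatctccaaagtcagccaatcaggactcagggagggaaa
Both motifs were searched on both strands. An NF-kB consensus was found in the promoters of 5 of the 7 genes (Cxcl1, Cxcl2, Cxcl10, Il6 and Csf1), against 4.51% of all 32851 promoters in the table, and not in the windows of Icam1 and Il33. Cxcl1 and Cxcl2 share a 14-base stretch, GGGAATTTCCCTGG, in which the consensus is met on both strands by matches that overlap and start 1 base apart. Cxcl10 held the NF-kB consensus at 2 places. It was the only gene of the 7 with the interferon-type motif, which was met in 3.44% of all promoters, and both motifs together were met in 60 promoters, 0.183% of all. A match is a stretch of letters and says nothing of binding in these cells. In the same assembly Cxcl1 and Cxcl2 are neighbouring coding genes on chromosome 5, and Ccl2 and Ccl7 are neighbours on chromosome 11.

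The 10 genes fell into groups by the class with the highest level. Cxcl1, Cxcl2, Ccl2, Ccl7, Csf1 and Il33 were highest in fibroblast-like cells in both libraries. Il6 was highest in smooth muscle-like cells in both, although with cells taken by a gate on markers aged Il6 was 243 CPM in smooth muscle and 364 CPM in fibroblast cells. Icam1 and Vcam1 were highest in blood endothelial-like cells in both. With cells taken by gates on markers, however, Icam1 was higher under the gate meant for lymphatic endothelium than under that for blood endothelium, in both libraries. The first gate asked for a UMI of Prox1 and of Pecam1 and none of Pdgfra or Acta2. It was 1498 against 1131 CPM in adult and 1767 against 930 CPM in aged cells. Aged Vcam1 was also higher under the lymphatic gate (884 against 845 CPM), but adult Vcam1 was lower (569 against 701 CPM). Most cells of the lymphatic gate lay outside the lymphatic endothelial-like class, which held 205 of its 547 adult and 78 of its 360 aged cells. In that class Icam1 was 345 and 136 CPM, so the gate values are not levels of lymphatic endothelial-like cells. By class, Cxcl10 alone changed place, from smooth muscle-like cells in the adult library to fibroblast-like cells in the aged one. Lower in these orders some neighbours had overlapping intervals. In the adult library they were blood endothelial-like and smooth muscle-like cells for Cxcl2, smooth muscle-like and lymphatic endothelial-like cells for Csf1 and Il33, and fibroblast-like and smooth muscle-like cells for Vcam1. In the aged library they were both endothelial classes for Cxcl2, Cxcl10 and Il33, and fibroblast-like and lymphatic endothelial-like cells for Icam1.

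**Figure D1:**
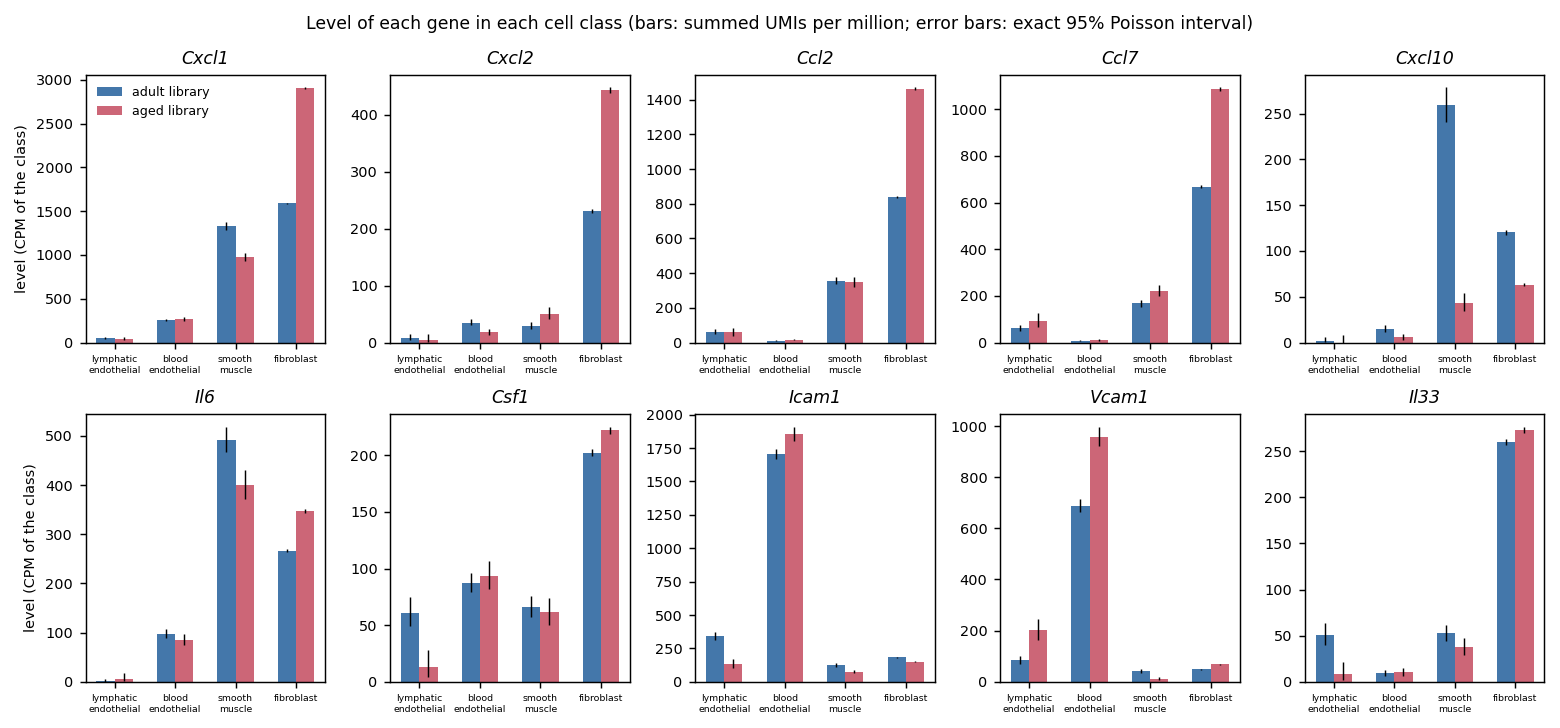
Level of each of the 10 genes (y axis, CPM of the class, linear from 0) in 4 cell classes of the adult library (blue) and the aged library (red), with exact 95% Poisson intervals. Cxcl1, Cxcl2, Ccl2 and Ccl7 were higher in aged than adult fibroblast-like cells, Cxcl10 was lower in both fibroblast-like and smooth muscle-like cells, and Icam1 and Vcam1 were highest in blood endothelial-like cells.

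In fibroblast-like cells 4 of the 10 genes were 1.5-fold or more higher in the aged library, against 2.03% of the 15797 genes measured there (50 or more UMIs in both libraries together). They were the neutrophil chemokines Cxcl1 and Cxcl2 and the monocyte chemokines Ccl2 and Ccl7. Cxcl10 was the 1 gene that was 1.5-fold or more lower, against 5.28% of all genes. The other 5 were within 1.5-fold over the class. Among its clusters, Vcam1 was 1.5-fold or more higher in 6 of 10 and lower in 1, and Icam1 was lower in 5 of 11 and higher in 1. Ratios are given as log2 of aged over adult CPM after adding 1 CPM to each, and the median over all genes of this class was −0.08. The genes were picked with earlier results of these libraries known, so these counts describe them and do not test them.

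Cxcl1 stood at 1590 CPM in adult and 2904 CPM in aged fibroblast-like cells, a log2 ratio of 0.87 (interval 0.86 to 0.88). The share of cells with a Cxcl1 UMI at 4000 UMIs was 69.8% in the adult library and 82.7% in the aged one (78.0% and 87.6% unthinned). The median cell held 3 and 8 UMIs, and 23.9% and 45% of cells held 10 or more. The higher level was thus spread over the class and not carried by a few cells, and the 5 highest cells held 0.733% and 0.514% of the UMIs. In all 11 fibroblast-like clusters with 50 or more cells in each library Cxcl1 was higher in the aged library, by 0.27 (cluster 9) to 1.27 (cluster 7), and in 8 of them by 1.5-fold or more. This rests on the clustering used. With finer clusters (Leiden resolution 2) one led by Nkain2 and Gabra2 (697 and 100 cells) was lower, with 981 and 752 CPM (log2 ratio −0.38). Cluster 8, led by Frem1, Enpp2 and the chemokine gene Ccl19, held the highest level in both libraries (2730 and 3942 CPM), and cluster 18, the shallowest, the lowest (341 and 524 CPM).

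Outside fibroblast-like cells Cxcl1 did not follow this direction. In smooth muscle-like cells it was 1331 CPM against 975 CPM in the aged library (log2 ratio −0.45, interval −0.53 to −0.37). In blood endothelial-like cells it was 254 and 267 CPM, and in lymphatic endothelial-like cells 48.1 and 44.6 CPM. In the 2 endothelial classes the intervals of the ratio contain 0. Of the 2 blood endothelial-like clusters, the one led by Vwf, Olr1 and Selp (cluster 10) had 322 and 234 CPM, and the one led by Rbp7 and Cd300lg (cluster 14) had 108 and 379 CPM, so the level of the class hides 2 opposite differences. The order fibroblast-like, smooth muscle-like, blood endothelial-like, lymphatic endothelial-like was the same at both ages, with no neighbouring intervals that overlap, and the ratio of the first to the second was 1.19 in the adult and 2.98 in the aged library.

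Cxcl2 was found in fewer cells. Its level was 230 CPM in adult and 444 CPM in aged fibroblast-like cells (log2 ratio 0.94, interval 0.92 to 0.97), and a UMI was seen in 15.8% and 22.8% of cells at 4000 UMIs. The top 10% of cells held 91.4% of its thinned UMIs in the adult library and 81.7% in the aged one, so Cxcl2 was concentrated in a minority at both ages. It was above its adult level in 9 of 11 clusters, by 1.5-fold or more in 4, from −0.31 in cluster 18 to 1.84 in cluster 7. Cluster 5, led by Mrgprg, Krtdap and Dmkn, had 426 and 834 CPM, and cluster 13, led by Acsbg1 and Fmod, had 31.4 and 27.5 CPM.

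In the other classes Cxcl2 rested on few cells. Blood endothelial-like cells had 35.1 and 17.8 CPM (log2 ratio −0.94), but 65.0% of the adult UMIs and 60% of the aged UMIs were in 5 cells. The share of these cells with a UMI at 4000 UMIs was 3.48% in the adult and 4.41% in the aged library, so no direction is read from the level. Smooth muscle-like cells had 29.1 and 50.4 CPM (log2 ratio 0.77), of which 44 of the 91 aged UMIs lay in 1 cell. In lymphatic endothelial-like cells only 12 and 2 UMIs were seen, under the 50 set as a minimum.

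Ccl2 was 841 CPM in adult and 1463 CPM in aged fibroblast-like cells (log2 ratio 0.80, interval 0.79 to 0.81), and its neighbour Ccl7 was 668 and 1087 CPM (log2 ratio 0.70, interval 0.69 to 0.72). At 4000 UMIs, 40.7% and 51.3% of cells held Ccl2, and 45.4% and 53.6% held Ccl7. Cells with 10 or more Ccl2 UMIs made up 11.1% and 20.7%. Ccl2 was higher in the aged library in all 11 clusters, by 1.5-fold or more in 7, and Ccl7 in 10 of 11, by 1.5-fold or more in 6. Among these clusters the ratio was largest for both genes in cluster 2, led by Myoc and Prg4 (Ccl2 530 and 1357 CPM, log2 ratio 1.36; Ccl7 633 and 1620 CPM, log2 ratio 1.35). Both were highest in cluster 5 among these 11 in both libraries, with 1737 and 2635 CPM for Ccl2 and 1125 and 1668 CPM for Ccl7. At a Leiden resolution of 2 the cluster led by Nkain2 and Gabra2 was lower for both, with log2 ratios of −0.79 and −0.62. Ccl2 was also lower there in clusters led by Ifi208 (−0.74) and Acsbg1 (−0.24), and higher in the others compared. Ccl7 was lower by less in some other clusters.

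Smooth muscle-like cells had 357 and 348 CPM of Ccl2 and 169 and 222 CPM of Ccl7. Relative to fibroblast-like cells these are 42.4% and 23.7% for Ccl2 and 25.2% and 20.5% for Ccl7, against 31.8% and 23.3% for the 8 fibroblast markers in the same cells, so Ccl7 was below the share of the fibroblast markers in both libraries and aged Ccl2 was near it. In smooth muscle-like cells 5 cells held 35.8% and 43.6% of the Ccl2 UMIs and 30% and 53.7% of the Ccl7 UMIs. At a Leiden resolution of 2 the cluster led by Pln and Nrip2 had 8.04 and 6.41 CPM of Ccl2 and 8.04 and 9.61 CPM of Ccl7. The one led by Actg2 had 534 and 581 CPM of Ccl2 and 162 and 135 CPM of Ccl7, so the levels were not shared evenly within the class. Blood endothelial-like cells had 9.03 and 17.0 CPM of Ccl2, a log2 ratio of 0.84 on 42 and 43 UMIs. That level was 1.07% of the fibroblast-like one in the adult library and 1.16% in the aged library. The 8 fibroblast markers, among them the collagen genes Col1a1 and Col3a1, stood at 1.63% and 1.42% of their fibroblast-like level in the same cells. Ccl2 and Ccl7 in blood endothelial-like cells were therefore no higher, relative to fibroblast-like cells, than the fibroblast markers there. The source of this RNA was not tested. Lymphatic endothelial-like cells held more. Ccl2 was 63.1 and 59.5 CPM, 7.50% and 4.07% of the fibroblast-like level, and Ccl7 was 61.7 and 93.5 CPM, 9.24% and 8.60%. The fibroblast markers stood at 0.830% and 1.37% there. These levels rested on few cells, since 5 cells held 64.5% and 67.9% of the Ccl2 UMIs and 50.5% and 84.1% of the Ccl7 UMIs.

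Cxcl10 went the other way. In fibroblast-like cells it was 120 CPM in adult cells and 63.3 CPM in aged cells (log2 ratio −0.92, interval −0.98 to −0.88), and 12.8% and 8.42% of cells held a UMI at 4000 UMIs. Few cells made most of it: the top 1% of cells held 36.7% and 42.6% of its thinned UMIs. Of 10 clusters measured, 5 were lower by 1.5-fold or more and 2 were higher than adult but within 1.5-fold. Cluster 3, led by Rxfp1, differed most, with 183 and 20.5 CPM (log2 ratio −3.09). Cluster 8 held the highest level in both libraries, with 392 and 174 CPM. At a Leiden resolution of 2 much of the adult Cxcl10 lay in 1 cluster shared unequally by the libraries (708 and 144 cells). Its leading genes included Ifi208, Rxfp1 and the interferon response gene Ifit1. It held 3347 and 107 UMIs (log2 ratio −2.40). Another, led by Greb1 and Rxfp1 (228 and 497 cells), had 108 and 9.69 CPM (−3.36).

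Smooth muscle-like cells showed the widest gap, with 259 CPM in adult cells and 43.2 CPM in aged cells (log2 ratio −2.56, interval −2.94 to −2.25). A UMI of Cxcl10 was found in 45 of 364 adult cells and in 9 of 267 aged cells, and 1 aged cell held 51 of the 78 aged UMIs. Both smooth muscle-like clusters had the same direction at the resolution of 1 used for the classes. Cluster 12 (led by Nrip2, Pln and Myh11) had 88.2 and 2.43 CPM, and cluster 15 (led by Actg2, Grem1 and Tnc) had 421 and 131 CPM. At a Leiden resolution of 2, a cluster led by Pln and Nrip2 (157 and 162 cells) held only 10 and 1 UMIs of Cxcl10. One led by Ctnna3 and Susd5 (23 and 16 cells, median 16714 and 18476 UMIs) held 112 and 2. The 122 and 3 UMIs of cluster 12 thus came largely from few adult cells. At that resolution the cluster led by Actg2 held 545 and 8 UMIs of Cxcl10. A cluster named pericyte-like by its markers (47 and 24 cells) went the other way. It held 71 and 67 UMIs, 200 and 330 CPM, so most of the aged Cxcl10 UMIs lay in few pericyte-like cells. Blood endothelial-like cells had 14.8 and 5.54 CPM, but 44 of their 69 adult UMIs were in 1 cell. In lymphatic endothelial-like cells 3 UMIs were seen among 246 adult cells and 0 among 85 aged cells, which allows up to 4.25% of cells with a UMI (exact, unthinned) and sets no limit on how many express the gene.

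In fibroblast-like cells the cytokines differed less between the libraries than the chemokines did. Il6 was 267 CPM in adult and 347 CPM in aged fibroblast-like cells (log2 ratio 0.38, interval 0.35 to 0.41), with a UMI in 39.7% and 46.1% of cells at 4000 UMIs. Its clusters were split: 7 of 11 were above the adult level, 1 by 1.5-fold or more (cluster 7, led by Rspo2, Plcxd3 and Cxcl13, 346 and 582 CPM), and cluster 2 was lower by 1.5-fold or more (180 and 119 CPM). In smooth muscle-like cells Il6 was 493 and 400 CPM, the highest class at both ages, although in the aged library it exceeded fibroblast-like cells by only 1.15-fold (interval 1.07 to 1.24). Within that class cluster 15 had 804 and 980 CPM and cluster 12 had 163 and 130 CPM. In blood endothelial-like cells cluster 14 (198 and 267 CPM) was above cluster 10 (50.7 and 32.2 CPM) in both libraries.

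Csf1 was the most even of the 10. In fibroblast-like cells it was 202 and 222 CPM (log2 ratio 0.13), none of 11 clusters differed by 1.5-fold, and the highest cluster exceeded the lowest by 2.04-fold in the adult and 3.47-fold in the aged library. For comparison, the same span for Cxcl1 was 8.01-fold and 7.52-fold. Blood endothelial-like cells had 87.3 and 93.8 CPM and smooth muscle-like cells 66.0 and 61.4 CPM. In lymphatic endothelial-like cells Csf1 was 61.0 and 12.8 CPM (log2 ratio −2.17, interval −3.74 to −1.08), from 90 UMIs in 33 cells and 6 UMIs in 5 cells, and 1 adult cell held 27 of the 90.

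Il33 was 260 and 273 CPM in fibroblast-like cells (log2 ratio 0.07), with a UMI in 45.5% and 45.1% of cells at 4000 UMIs. Of 11 clusters, 10 were within 1.5-fold. The exception was cluster 18 (56 and 18 UMIs, log2 ratio −1.41), whose cells had the lowest median UMIs of all fibroblast-like clusters. Lymphatic endothelial-like cells had 50.9 and 8.50 CPM of Il33 (log2 ratio −2.45, interval −4.49 to −1.16). In the adult library 48 of the 75 UMIs came from the cluster led by Ccl21a, Reln and Lyve1 (cluster 19), which held 101 adult cells but only 19 aged cells, with 0 UMIs of Il33 in the latter. Its aged interval reaches 45.9 CPM, against 87.1 CPM (64.2 to 115) in adult cells. In the cluster led by Spp1, Coch and Nts (cluster 16) Il33 was 29.2 and 10.3 CPM, from 27 and 4 UMIs.

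Among the named classes the adhesion genes had their highest levels in blood endothelial-like cells. Icam1 was 1708 CPM in adult and 1857 CPM in aged blood endothelial-like cells (log2 ratio 0.12, interval 0.07 to 0.17), with a UMI in 75.3% and 76.5% of cells at 4000 UMIs. Vcam1 was 689 and 959 CPM (log2 ratio 0.48, interval 0.40 to 0.55), with a UMI in 40.7% and 42.4%. Both genes were higher in the Vwf and Selp cluster 10 than in the Rbp7 and Cd300lg cluster 14. Icam1 was 2286 and 2261 CPM in cluster 10 and 468 and 468 CPM in cluster 14. Vcam1 was 946 and 1095 CPM in cluster 10 but 137 and 491 CPM in cluster 14 (log2 ratio 1.84, on 202 and 280 UMIs). The unnamed Gja5 and Sema3g cluster had 1170 and 1234 CPM of Vcam1 and 896 and 1182 CPM of Icam1.

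In this endothelium 1 of 10 genes was 1.5-fold or more higher in the aged library, against 5.69% of 9105 genes, and 2 were lower, against 7.66%. The higher gene was Ccl2, with 42 and 43 UMIs, which relative to fibroblast-like cells was no higher than the fibroblast markers. The lower genes were Cxcl2 and Cxcl10, of which 5 cells held most UMIs. With cells taken by a gate on markers (251 and 109 cells) Cxcl2 had the opposite sign (0.93). The most widespread of the 8 lymphatic markers was seen in 60.7% of adult and 76.0% of aged blood endothelial-like cells, and its part in these levels was not tested.

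In lymphatic endothelial-like cells 7 of the 10 genes were measured, 2 of them 1.5-fold or more higher in the aged library, against 8.59% of 5658 genes, and 3 lower, against 9.17%. Icam1 was 345 and 136 CPM (log2 ratio −1.34, interval −1.74 to −0.97), with a UMI in 133 of 246 adult and 24 of 85 aged cells. It was lower in both clusters, with 236 and 105 CPM in cluster 16 and 528 and 286 CPM in cluster 19, though cluster 19 held only 19 aged cells. Vcam1 was 85.4 and 202 CPM (log2 ratio 1.23), but 18 adult and 7 aged cells held it and 5 cells carried 77.8% and 97.9% of its UMIs. Ccl7 was at the limit with a fold of 1.51, and 1 of the 85 aged cells held 21 of its 44 UMIs. The lower Csf1 and Il33 were described above. A gate on Prox1 and Pecam1 without Pdgfra or Acta2 took in 547 and 360 cells, most of them outside this class, and gave log2 ratios of 0.24 for Icam1, 0.0271 for Csf1 and −1.25 for Il33, so the directions of the first 2 rest on how these cells are chosen.

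In smooth muscle-like cells 1 of 10 genes was 1.5-fold or more higher in the aged library, against 3.99% of 8701 genes, and 3 were lower, against 11%. The first was Cxcl2, with most of its UMIs in 5 cells. The others were Cxcl10, Icam1 (124 and 74.7 CPM, log2 ratio −0.73, interval −1.03 to −0.44) and Vcam1 (42.1 and 12.2 CPM, log2 ratio −1.71, interval −2.52 to −1.13). These cells also held the 8 fibroblast markers at a summed 7778 and 7216 CPM, each in 10.1% to 74.9% of cells, which is 31.8% and 23.3% of the fibroblast-like level. The 8 pericyte markers summed to 2208 CPM in adult and 2784 CPM in aged cells of this class, so it took in pericyte-like cells. Epithelial markers summed to 0 CPM in adult and 408 CPM in aged smooth muscle-like cells, in at most 2.25% of cells. When smooth muscle cells were taken instead by a gate on Myh11 and Acta2 without Pdgfra or Pecam1 (241 and 195 cells), 7 of 9 genes measured were lower in aged cells by 1.5-fold or more and 0 were higher. No share over all genes is given for that gate, so this count cannot be set against other genes. Under that gate Cxcl1 was 1049 and 502 CPM, Ccl7 111 and 34.3 CPM, and Il6 410 and 243 CPM. In cells with Pdgfra, by the corresponding gate, the log2 ratio of Cxcl1 was 0.80.

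**Figure D2:**
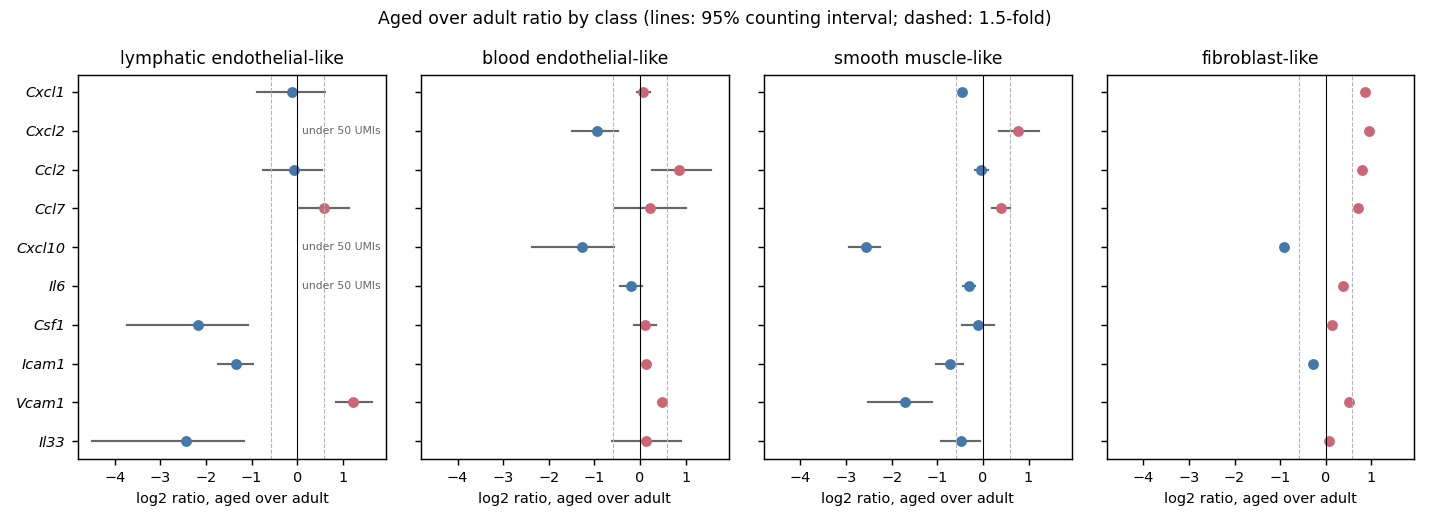
Log2 ratio of aged over adult level (x axis) of each gene (y axis) in 4 cell classes, with exact 95% counting intervals as lines, 0 as a solid line and 1.5-fold as dashed lines. In fibroblast-like cells intervals are narrow, with Cxcl1 at 0.87 and Cxcl10 at −0.92.

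Fibroblast-like clusters were not shared evenly by the libraries. Cluster 4 held 36 adult and 1228 aged cells, cluster 9 held 910 and 53, and cluster 17 (led by Lgr5) held 3 and 147. Cluster 4 had high levels of Cxcl1 (2486 and 3513 CPM) and Ccl2 (2077 and 2306 CPM) in both libraries, and cluster 9 had 2078 and 2503 CPM of Cxcl1 and 1552 and 1754 CPM of Ccl2. With these 3 clusters left out the log2 ratios were 0.91 for Cxcl1, 1.05 for Cxcl2, 0.86 for Ccl2, 0.87 for Ccl7 and −1.18 for Cxcl10. With every cluster given the same weight in both libraries they were 0.60, 0.59, 0.57, 0.53 and −0.88, so 2 in place of 4 genes passed 1.5-fold. The direction was the same in each case. With the copies of adult cells kept among the aged cells the log2 ratios were 0.62, 0.68, 0.54, 0.49 and −0.55 in the same order, that of Cxcl10 in smooth muscle-like cells was −0.83, and in lymphatic endothelial-like cells none of the 7 genes passed 1.5-fold.

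**Figure D3:**
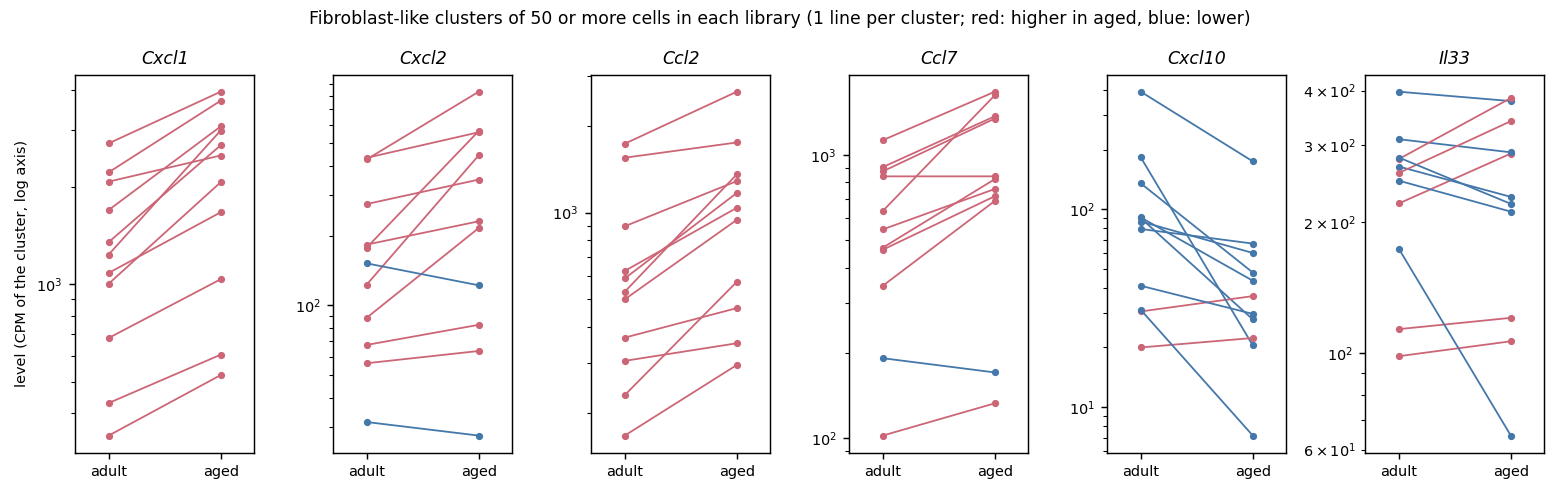
Level (y axis, CPM of the cluster, log axis) of 6 genes in the adult and the aged library, with 1 line for each fibroblast-like cluster of 50 or more cells in each library (11 clusters; red lines are higher in the aged library, blue lines lower). All 11 lines of Cxcl1 and Ccl2 climb, whereas those of Il33 stay nearly level apart from cluster 18, which falls from 173 to 64.6 CPM. At a Leiden resolution of 2, not drawn here, a cluster led by Nkain2 and Gabra2 was lower in the aged library for Cxcl1 and Ccl2.

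The libraries also differed in the sex of their cells. By Xist against Y-linked genes, 2960 adult fibroblast-like cells were female and 2374 male, and 2248 and 3183 of the aged ones. Cxcl1, Cxcl2, Ccl2 and Ccl7 were each higher in male than female cells of both libraries, for example Cxcl1 with 1384 CPM in female and 1877 CPM in male adult cells and 2381 and 3337 CPM in aged cells. Within a sex the difference between libraries remained. Log2 ratios in female and male cells were 0.78 and 0.83 for Cxcl1, 0.99 and 0.81 for Cxcl2, 0.87 and 0.62 for Ccl2, and 0.78 and 0.53 for Ccl7. Cxcl10 was lower in both sexes, by more in female cells (−1.51) than in male cells (−0.47). Il6 and Vcam1 differed mostly in male cells, with log2 ratios of −0.15 and 0.61 for Il6 and 0.09 and 1.11 for Vcam1. How many mice of each sex were pooled is not given in the sources used here, so sex and mouse cannot be told apart.

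The genes could also be followed from cell to cell. Among fibroblast-like cells at 4000 UMIs, Ccl7 was seen in 65.8% of adult cells with Ccl2 and in 31.4% of those without it, a difference of 34.5 percentage points, and in 70.4% and 35.8% of aged cells, a difference of 34.6. Cxcl2 was seen in 21.6% of adult cells with Cxcl1 and 2.37% of those without it, and in 27.1% and 2.21% of aged cells. The pairs of neighbouring genes were thus found together at both ages, and Cxcl1 with Ccl2 as well (50.6% and 18.0% of adult cells, 58.0% and 19.0% of aged cells). In each of these 3 pairs the share was higher with the first gene in every cluster that could be compared, 10 or 11 in the adult and 8 or 9 in the aged library. The correlation of thinned levels over cells was 0.43 in the adult and 0.47 in the aged library for Cxcl1 and Ccl2. For Ccl2 and Ccl7 it was 0.40 and 0.41, and for Cxcl1 and Cxcl2 0.34 and 0.35. These are descriptions over the cells of 1 library each.

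The adhesion genes were also found together, and each with Il6. Vcam1 was seen in 21.2% of adult fibroblast-like cells with Icam1 and 8.67% of those without it, and in 24.9% and 12.2% of aged cells. The share was higher with Icam1 in 7 of 10 adult and 6 of 8 aged clusters. Il6 was seen more often with Icam1 than without it by 18.1 points in the adult and 13.9 points in the aged library, in all 10 and all 8 clusters, and with Vcam1 by 16.6 and 13.6 points, in 8 of 8 and 5 of 7 clusters. Ccl2 and Icam1 were apart: 31.4% of adult cells with Ccl2 and 37.3% of those without it held Icam1, and 27.4% and 34.7% of aged cells. Within clusters this was not so, since Icam1 was more frequent with Ccl2 in 7 of 10 adult and 7 of 8 aged clusters, so the contrast lay between clusters. The share of cells with Il33 differed little by Ccl2, by 2.39 points in the adult and −0.94 points in the aged library.

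**Figure D4:**
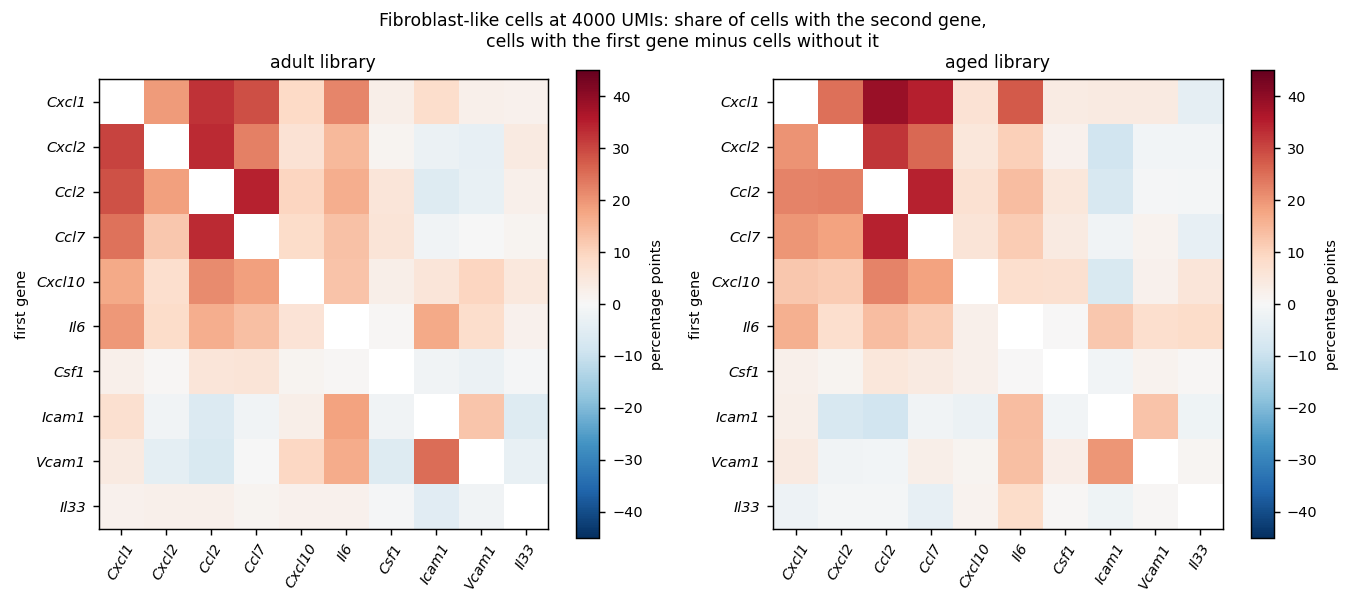
Fibroblast-like cells thinned to 4000 UMIs: colour gives the share of cells with a UMI of the second gene (x axis) among cells with the first gene (y axis) minus that among cells without it, in percentage points, for the adult (left) and aged (right) library. Cxcl1, Cxcl2, Ccl2, Ccl7 and Il6 form a red block in both libraries, with 34.5 and 34.6 points for Ccl7 given Ccl2, while Csf1 and Il33 are near white.

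Across 16 clusters of 50 or more cells in each library, taken in each library (32 points of log2(CPM + 1), which share libraries and depth), Ccl2 and Ccl7 correlated at 0.96, both with Il33 at 0.86, Icam1 with Vcam1 at 0.85, and Ccl2 with Vcam1 at −0.64. Over 13370 other genes the patterns most like Cxcl1 were those of the metallothionein gene Mt2 (0.93), Phlda1 (0.90) and Srxn1 (0.87). Those most like Cxcl2 were the cytokine gene Tslp (0.92), Ier5 (0.91) and Srxn1 (0.88). Most like Ccl2 and Ccl7 were Loxl2 (0.93), Efemp2 (0.92) and Pcolce2 (0.91) for Ccl2 and Gsn (0.93), Efemp2 (0.92) and Nfix (0.92) for Ccl7. The chemokine gene Ccl11 was nearest to Cxcl10 (0.83), ahead of Hotairm1 (0.83) and Acot1 (0.80). For Il6 they were Plekhf1 (0.84), Apobec1 (0.83) and the interleukin 1 receptor gene Il1r1 (0.83), for Csf1 Cadm3 (0.90), Cdon (0.88) and Scpep1 (0.85), and for Il33 the elastic fibre gene Fbln5 (0.93), Hsd11b1 (0.92) and Vit (0.92). Icam1 had Il6st (0.87), the shared signal chain of Il6-type receptors, Tpm3 (0.86) and Emp1 (0.83). Vcam1 had Tpm3 (0.85), Vegfc (0.85), a growth factor of lymphatic endothelium, and Il6st (0.83). These are descriptions of level over clusters.

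**Figure D5:**
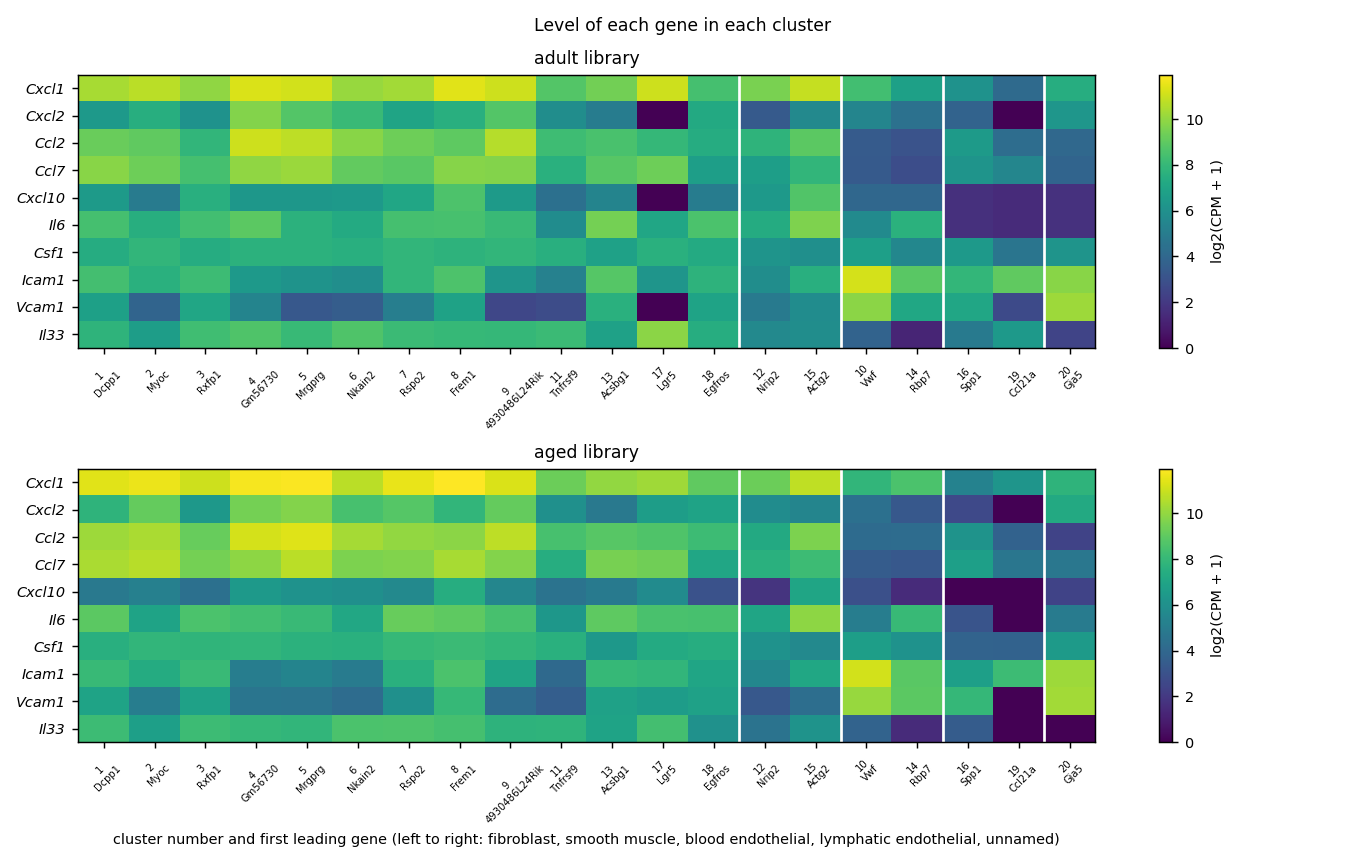
Level of each gene (rows, log2 of CPM plus 1, as colour) in each of 20 clusters (columns, with the first leading gene) of the adult (top) and aged (bottom) library, with white lines between cell classes. Chemokine genes are brightest in the fibroblast-like clusters on the left, and Icam1 and Vcam1 in the blood endothelial-like clusters and the unnamed cluster 20.

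Genes of the surrounding pathways were taken from fixed lists. Of NF-kB targets and regulators, 25 were measured in fibroblast-like cells, with a median log2 ratio of 0.22 against −0.08 over all genes, and 1 was 1.5-fold or more higher and 1 lower. The highest were Nfkb1, a subunit of NF-kB (1341 and 2072 CPM, log2 ratio 0.63), and its inhibitor gene Tnfaip3 (0.49), and the lowest were Cd40 (−0.62) and Irf1 (−0.53), a target of interferon as well. Receptors and adaptors that induce the 10 genes had a median of −0.05 over 21 genes, with 2 higher and 1 lower. Tlr2 (21.1 and 38.6 CPM, log2 ratio 0.84) and Il1r1 (307 and 479 CPM, log2 ratio 0.64) were the highest, and Lifr (36.5 and 24.7 CPM, −0.55) was among the lowest.

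The list of other inflammatory chemokines and cytokines was mixed, with 4 of 18 higher, 6 lower and a median of −0.05. Cxcl5 and Cxcl3, which also act on Cxcr2, were the highest. Cxcl5 was 5.49 and 12.2 CPM (log2 ratio 1.02), and Cxcl3 was 0.577 and 4.21 CPM, from 47 and 330 UMIs, with a log2 ratio of 1.72 that the added CPM holds below its interval (2.42 to 3.34). Cxcl9, which shares the receptor Cxcr3 with Cxcl10, was the lowest (13.9 and 1.85 CPM, log2 ratio −2.39), followed by Spp1 (179 and 13 UMIs, log2 ratio −1.46). In smooth muscle-like cells Cxcl9 was lowest too, with 180 and 1 UMIs (log2 ratio −5.37, interval −12.1 to −4.34), and Ccl8 the highest (1.13).

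In the other classes the NF-kB list had medians of −0.09 in lymphatic endothelial-like (1 of 17 higher, 2 lower), 0.09 in blood endothelial-like (0 of 24 higher, 1 lower) and −0.27 in smooth muscle-like cells (0 of 22 higher, 4 lower). Its extremes were Nfkbia (0.76) and Socs3 (−1.16) in the first, Sod2 (0.55) and Socs3 (−0.96) in the second, and Rel (0.21) and Tnfaip2 (−1.28) in the third. Of other chemokines and cytokines, Csf3 was highest (0.64) and Spp1 lowest (84 and 1 UMIs, −3.77, interval −10.8 to −2.99) in blood endothelial-like cells, and Mif (0.15) and Spp1 (−2.0) in lymphatic endothelial-like cells.

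Of the 17 receptors of the 10 genes in the table, 10 were measured in fibroblast-like cells, 4 to 6 in the other classes. In fibroblast-like cells 1 was higher and none lower. The higher one was Il1rl1, the receptor of Il33, with 2.07 and 5.62 CPM (169 and 441 UMIs, log2 ratio 1.11). Ackr1, a chemokine-binding receptor without signalling, had 0.28 there, and the lowest were Csf1r (−0.47) and Itgb7 (−0.42). Cxcr2 had 3 and 5 UMIs and Cxcr3 had 0 in fibroblast-like cells of both libraries. In blood endothelial-like cells Il6ra was the highest (0.73) and Itgb7 the lowest (−1.95), in lymphatic endothelial-like cells Ackr1 (1.45) and Il6ra (−0.76), and in smooth muscle-like cells Il6ra (0.17) and Il6st (−0.08). Of inducing receptors and adaptors, the highest and lowest were Ifnar1 (0.67) and Stat3 (−0.52) in lymphatic endothelial-like cells and Ifnar1 (0.23) and Tlr4 (−0.88) in smooth muscle-like cells. In blood endothelial-like cells the highest was Tlr2 (0.60).

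Other endothelial adhesion genes had a median of 0.24 over 13 genes in blood endothelial-like cells, with Alcam higher (35.1 and 101 CPM, log2 ratio 1.5) and Jam3 lower (−0.99). In lymphatic endothelial-like cells Esam was the highest (1.11) and F11r the lowest (−0.32), and in smooth muscle-like cells F11r (0.45) and Pecam1 (−1.82). In fibroblast-like cells Alcam (1.10) and Sele (0.39) were the highest and Pecam1 (−1.14) and Mcam (−0.43) the lowest.

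Interferon response genes were mostly lower, and had a negative median in every class, as Cxcl10 was lower in each class where it was measured. In fibroblast-like cells 14 of 22 were 1.5-fold or more lower and none higher, with a median of −0.72. The lowest were the immunity-related GTPases Iigp1 (462 and 139 CPM, log2 ratio −1.73) and Igtp (−1.40), and the highest Irf7 (−0.04) and Usp18 (−0.16). Medians in lymphatic endothelial-like, blood endothelial-like and smooth muscle-like cells were −0.63, −0.63 and −0.73, with 6 of 9, 10 of 20 and 12 of 19 genes lower. The lowest were Iigp1 (−2.60), Igtp (−1.69) and Gbp5 (−2.85), and the highest Irf9 (0.36), Ifit1 (0.65) and Rsad2 (2.78), in the same order of classes. Their part in the lower Cxcl10 was not tested.

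Immediate early genes, which dissociation of tissue can induce, were compared as well, and their part in the levels of the 10 genes was not tested. In fibroblast-like cells 2 of 15 were 1.5-fold or more lower and none higher (median −0.15), with Fos (2761 and 1689 CPM, −0.71) and Jun (−0.60) the lowest and Egr3 (0.49) and Klf6 (−0.02) the highest. More of them were lower in endothelium, with 10 of 14 genes and a median of −0.75 in lymphatic endothelial-like cells and 12 of 15 and −0.83 in blood endothelial-like cells, and less so in smooth muscle-like cells (2 of 15, −0.39). Egr1 was the lowest in all 3 of these classes (−1.50, −1.44 and −1.09), and Klf6 (0.56), Klf6 (−0.04) and Jund (0.24) the highest. Of glucocorticoid targets, 4 of 10 were higher in fibroblast-like cells and none lower, with a median of 0.53, led by Zbtb16 (92.8 and 270 CPM, 1.53) and Tsc22d3 (0.87), with Nr3c1 (−0.07) and Klf9 (0.22) the lowest. In the other classes 3 of 9 (lymphatic endothelial-like), 6 of 10 (blood endothelial-like) and 2 of 10 (smooth muscle-like) were higher, led by Fkbp5 (0.82, lymphatic endothelial-like) and Zbtb16 (2.03 in blood endothelial-like and 0.88 in smooth muscle-like cells), with Errfi1 (−0.62), Sgk1 (−0.39) and Sgk1 (−0.45) the lowest. Mt2, whose pattern was most like that of Cxcl1, belongs to this list.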

How the data were processed

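Per the labels, cells sorted from superficial cervical lymphatics of pooled mice were captured with a 10X Genomics 3′ kit, and both libraries were used. The values the authors deposited are natural log values of 1 plus UMIs scaled to 10000 in each cell, a unit read from the values. Seurat 5.0.3 and the builds GRCm39 and mm10 are named, without a role, per the submitters' processing notes. No aligner or cell filter is given in the sources used here. UMIs were recovered as whole numbers for 100% of values (tolerance 0.01). Adult cells held 1725 to 37655 UMIs and the aged cells used 1518 to 50077. No further filter and no doublet caller was applied.

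Barcodes of the aged table found in the adult table were dropped. All cells were clustered together (2000 variable genes without the 10 genes studied and without mitochondrial, ribosomal, haemoglobin, sex-linked and immediate early genes, 30 principal components, 15 neighbours, Leiden resolution 1; numpy 2.4.6, scikit-learn 1.9.0, igraph 0.11.9). Classes were given by markers: the list with the top mean log2 fold against other clusters named a cluster where that mean reached 1 and 3 markers were seen in 10% of cells. Remaining clusters with 3 fibroblast markers in 50% of cells were called fibroblast-like. These rebuilt names may differ from the study's own.

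UMIs were summed per class and library and divided by the class total (CPM). Intervals are exact at 95%: Poisson for levels, Clopper-Pearson for shares, and conditional binomial for ratios (scipy 1.17.1), the last without the added CPM. Only the ratio intervals were tested on simulated data. Those counts were drawn from the Poisson model that the intervals assume, so the test cannot show how they hold for real cells. All intervals leave out differences between cells, mice and libraries. Genes of 50 or more UMIs in both libraries together were counted as measured, and 1.5-fold as higher or lower. The genes, markers and lists were chosen with earlier results of these data known. Other genes named were the 3 most alike in pattern for each gene (200 or more UMIs) and, from each list, the 2 highest and 2 lowest in fibroblast-like cells and 1 and 1 elsewhere. Some genes this rule names are not reported here. Clusters, receptors and single genes given as examples beyond that rule were chosen after their values were seen. Alternatives were another added CPM, no minimum, all aged cells, thinning, means over cells, each sex alone, equal cluster weights, clustering with the 10 genes, a marker gate and, added after seeing the data, leaving out clusters of mostly 1 library.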

Additional observations from a re-analysis of the deposited data

Results flagged for a closer look

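The directions of 2 genes were opposite between classes by 1.5-fold or more, and the difference between classes was not tested, since each age is 1 library. The log2 ratio of aged over adult Cxcl2 was −0.94 in blood endothelial-like cells, 0.77 in smooth muscle-like cells and 0.94 in fibroblast-like cells. The first 2 values rest on few cells, with 5 cells holding 60% to 85.7% of the UMIs. For Vcam1 it was 1.23 in lymphatic endothelial-like cells, where 7 aged cells held a UMI, and −1.71 in smooth muscle-like cells, where 14 did.

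The copies of adult cells in the aged table held 185187 UMIs of the 10 genes together. They were left out of the main comparisons, and used only to check row names and in the alternative with all aged cells. The most came from Cxcl1, with 66471 UMIs there and 133952 in the same cells of the adult table.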

How the results depend on the processing

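No paired analysis was possible because each age is 1 pooled library. Among ratios of 1.5-fold or more, 3 took the other sign, each with cells chosen by a gate on markers: Csf1 (0.0271) and Icam1 (0.24) in lymphatic endothelial-like and Cxcl2 (0.93) in blood endothelial-like cells. Smaller ratios took the other sign in 25 of 193 values under alternatives (13 ratios), such as fibroblast-like Il6 in female cells (−0.15). That gate takes 547 adult and 360 aged cells as lymphatic, of which 205 and 78 are in the class. In fibroblast-like cells, where 4 genes were higher and 1 lower, the counts became 2 and 0 with all aged cells as deposited, with ratios closer to 0 (Cxcl1 0.62, Cxcl10 −0.55), 2 higher with equal cluster weights, and 0 lower in male cells. In smooth muscle-like cells (1 and 3) the higher count was 0 after thinning, in female cells and under the gate, which gave 7 lower. In blood endothelial-like cells (1 and 2) the higher count was 0 with 10 CPM added, all aged cells, thinning or female cells and 2 in male cells or under the gate, and the lower count 1 with all aged cells or thinning and 0 in male cells or under the gate. In lymphatic endothelial-like cells (2 and 3) the higher count was 1 with 10 CPM added, equal cluster weights, clustering with the 10 genes or the gate and 0 with all aged cells or male cells, and the lower count 5 with no minimum of UMIs, 0 with all aged cells and 1 in male cells, where 1 gene was measured. At a Leiden resolution of 2 the median over fibroblast-like clusters went from 0.39 to −0.06 for Il6 and from 0.80 to 0.25 for Vcam1. The cluster led by Nkain2 and Gabra2 then had negative log2 ratios for Cxcl1 (−0.38), Cxcl2 (−0.56), Ccl2 (−0.79) and Ccl7 (−0.62). The cause was not tested for these shifts. Shares over all genes are given only for the 4 classes as first defined, so the counts under alternatives describe the 10 genes alone. The 85 aged lymphatic endothelial-like cells held 470563 UMIs in all, which limits their values.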
